A study of Rattus norvegicus with 24 samples.

Results

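The genes described here are 36 genes of glycolysis, lactate handling and the cellular response to low oxygen, chosen by name as a list. Of these, 35 are among the 29539 genes of the count table and all 35 passed the filter on low counts, while Pgk1 (phosphoglycerate kinase) was not analysed here. The measured genes are 2 glucose transporters, 16 glycolytic enzymes, 5 genes of lactate conversion and transport, 6 regulatory kinases, 4 genes of the oxygen response and 2 of the pentose phosphate pathway. Sequencing libraries came from the polyadenylated RNA of 24 brain samples of the rat, Rattus norvegicus. The SKF group (8 samples) is brain after a forebrain stab wound and SKF-81297, an agonist of D1-like dopamine receptors, injected intraperitoneally each day for 3 days from 1 h after wounding. The vehicle group (8 samples) has no further label and is taken to be brain wounded likewise and injected with the solvent. The normal control group (8 samples) is brain that the labels call normal, and no sham-operated group is described. Strain, age, brain region and time of collection are not given in the labels, and the labels do not tie samples to separate animals, so a p value reflects the spread between samples, which may be technical.

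Glycolysis splits glucose into pyruvate in the cytosol, and lactate dehydrogenase turns pyruvate into lactate and back. In brain, blood glucose enters through Slc2a1 in endothelium and glia, neurons take up glucose mainly through Slc2a3, and lactate moves between cells through monocarboxylate transporters. Many steps are run by alternative isoforms that differ between neurons, glia and blood-derived cells. Under low oxygen the transcription factor HIF1A, which the prolyl hydroxylases EGLN1 and EGLN3 otherwise mark for breakdown, raises the transcription of many of these genes. That control acts mostly on the protein, so the Hif1a transcript is not a readout of HIF activity. In bulk tissue, fewer cells of a type and less RNA per cell cannot be told apart.

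Total counts ran from 8911339 to 12383368 per library. Principal component analysis separated every normal control library from every wounded library on its first axis (54.3% of the variance), and on the second axis (7.19%) normal control 6 stood apart at -60.99. Normal control 4 had a summed level of 13 skeletal muscle markers of 2957 CPM (counts scaled to library size), against 104.0 to 136 CPM in the other 7 normal control libraries. The labels give no batch. Levels below are CPM on effective library sizes, for comparing a gene between groups, or the authors' TPM (transcript abundance scaled by gene length), for comparing genes with each other.

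HIF binds DNA at a core written ACGTG or GCGTG, and the 250 bases before each gene's start in the RefSeq promoter table (build GRCr8) were searched for both on both strands. RefSeq entries were found for 34 of the 36 genes. At least 1 match lay in 22 of those 34 genes (64.7%), and in 23 of their 38 promoters (60.5%), against 36.7% of all 33469 promoters of the same length. The 36.7% counts promoters, as the 60.5% does, and was not matched for base composition. By their change in vehicle against normal control, given below, 9 of 14 genes that rose held a match, as did 6 of 10 that fell and 7 of 10 with a promoter entry that did not pass the test. The next lines print the upstream windows of 3 genes that rose and hold matches (Ldha, Slc2a1, Pfkfb3), of Bnip3, which holds as many as Ldha and fell, and of Slc16a3, which rose and holds none. Matches on either strand are in capitals, and CACGTG is a match on both strands at once.
Ldha: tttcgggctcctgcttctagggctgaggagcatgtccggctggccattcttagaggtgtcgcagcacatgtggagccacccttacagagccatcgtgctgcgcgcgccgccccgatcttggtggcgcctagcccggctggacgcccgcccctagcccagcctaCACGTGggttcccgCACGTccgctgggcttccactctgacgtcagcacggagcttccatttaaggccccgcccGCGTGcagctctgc
Slc2a1: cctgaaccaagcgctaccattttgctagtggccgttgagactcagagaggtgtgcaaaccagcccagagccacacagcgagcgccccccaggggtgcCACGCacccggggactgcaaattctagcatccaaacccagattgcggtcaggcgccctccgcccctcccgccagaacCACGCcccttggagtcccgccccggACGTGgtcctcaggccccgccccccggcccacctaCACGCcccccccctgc
Pfkfb3: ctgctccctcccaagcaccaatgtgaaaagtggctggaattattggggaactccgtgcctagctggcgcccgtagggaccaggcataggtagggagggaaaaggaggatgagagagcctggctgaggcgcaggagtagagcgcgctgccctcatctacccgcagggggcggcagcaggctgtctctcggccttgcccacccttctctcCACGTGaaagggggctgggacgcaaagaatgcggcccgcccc
Bnip3: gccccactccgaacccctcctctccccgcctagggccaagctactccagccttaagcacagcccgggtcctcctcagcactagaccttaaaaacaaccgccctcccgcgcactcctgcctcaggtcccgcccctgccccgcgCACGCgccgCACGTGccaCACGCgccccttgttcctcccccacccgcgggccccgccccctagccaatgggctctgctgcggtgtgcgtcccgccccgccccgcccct
Slc16a3: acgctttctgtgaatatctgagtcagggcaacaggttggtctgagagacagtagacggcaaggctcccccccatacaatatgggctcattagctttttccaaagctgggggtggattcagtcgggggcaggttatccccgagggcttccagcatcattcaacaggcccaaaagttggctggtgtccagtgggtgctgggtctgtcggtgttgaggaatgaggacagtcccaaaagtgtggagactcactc
These windows are chr1:106507842-106508091 (plus strand) for Ldha, chr5:138002272-138002521 (plus) for Slc2a1 and chr17:71944683-71944932 (plus) for Pfkfb3. Those of Bnip3 and Slc16a3 are chr1:203154963-203155212 (minus) and chr10:106712078-106712327 (plus). Ldha, Slc2a1 and Bnip3 each held 4 matches and Pfkfb3 held 2, those of Pfkfb3 forming 1 CACGTG, a sequence present in 5.59% of all promoters. A match is a run of letters and not a measured binding site, and a window with none says nothing of HIF at that gene.

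Vehicle against normal control asks what the wound, with its carrier injections, changed. Here 14 of the 35 genes rose and 10 fell (68.6% in all) at an edgeR adjusted p under 0.05, against 54.0% of all 14421 genes tested (26.9% higher and 27.1% lower). The median log2 fold change was 0.06 over the 35 genes and -0.01 over all genes. The pathway did not move as a block: in several families an isoform rose while its partner fell or did not pass the test. In SKF against normal control, 17 rose and 7 fell, against 50.2% of all genes (25.5% higher and 24.7% lower), with a median of 0.13. Both comparisons use the same normal control libraries. On the authors' TPM, where the median of all genes tested shifts by 0.11 (log2) in vehicle against normal control, the split became 16 higher and 4 lower in that comparison, and 20 higher and 3 lower in SKF against normal control. Of all genes called on that scale (pseudocount 1), 69.5% were higher in vehicle and 68.5% in SKF, so calls leaned upward among all genes too. No gene called on either scale changed sign between them.

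**Figure D1:**
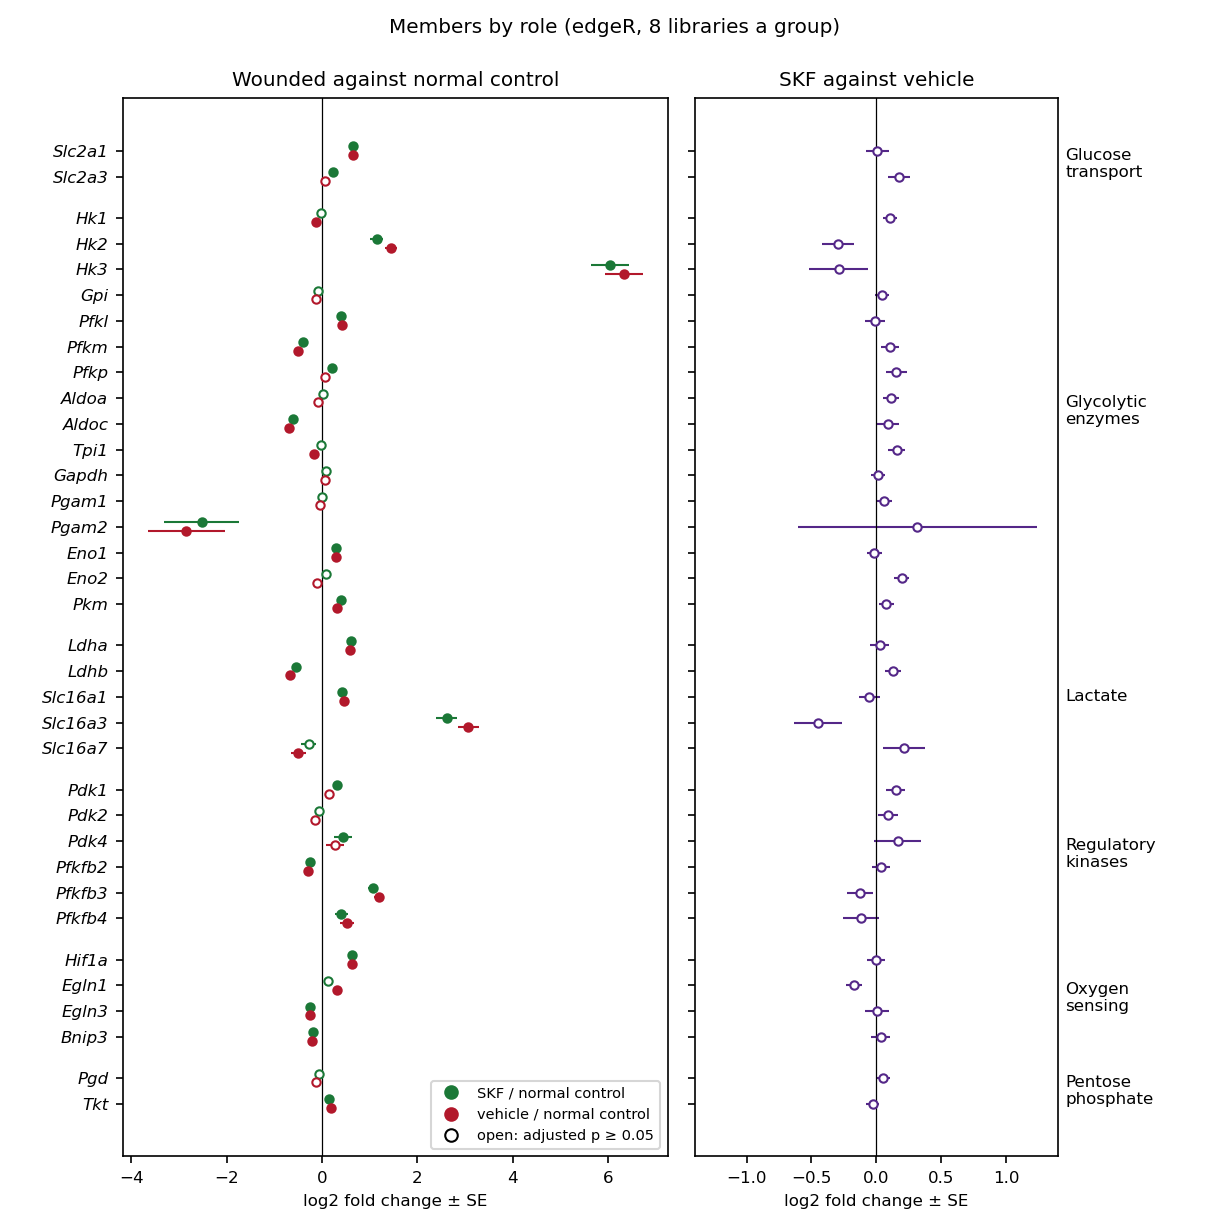
Log2 fold changes (points) with their standard errors (lines) for the 35 genes, ordered by role, from edgeR with 8 libraries a group. The left panel sets SKF (green) and vehicle (red) libraries against normal control, the right panel SKF against vehicle on a wider scale, and open circles mark adjusted p values of 0.05 or more. Hk3 and Slc16a3 lie farthest right and Pgam2 farthest left in the left panel, and every circle in the right panel is open.

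The glucose transporters differed from each other. Slc2a1, the transporter of the blood-brain barrier and glia, ran from 169 to 218 CPM (median 199) in SKF libraries and from 138 to 255 CPM (median 185) in vehicle libraries, against 112 to 137 CPM (median 124) in normal control. Every SKF and vehicle library lay above every normal control library. The log2 fold change was 0.65 ± 0.09 (SE) in vehicle against normal control (edgeR adjusted p = 8.59e-07) and 0.66 ± 0.09 in SKF against normal control (adjusted p = 8.20e-07). Slc2a3, the main neuronal transporter, ran from 112 to 165 CPM (median 137) in SKF libraries and from 90.8 to 163 CPM (median 120) in vehicle libraries, against 107 to 124 CPM (median 114) in normal control. Its ranges overlapped in every comparison, with a log2 difference of 0.06 ± 0.09 in vehicle against normal control (adjusted p = 0.595) and a rise of 0.23 ± 0.09 in SKF against normal control (adjusted p = 0.0277). That rise did not pass without normal control 7, SKF 2 or SKF 3 (log2 fold change 0.19 to 0.27 over all single omissions, adjusted p up to 0.0737).

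Hexokinase traps glucose in the cell, and its isoforms moved apart. Hk2, the inducible isoform, ran from 12.0 to 19.5 CPM (median 15.8) in SKF libraries and from 13.2 to 24.5 CPM (median 20.0) in vehicle libraries, against 5.00 to 10.4 CPM (median 7.08) in normal control. All wounded libraries exceeded all normal control libraries, with log2 fold changes of 1.44 ± 0.13 in vehicle against normal control (edgeR adjusted p = 3.92e-10) and 1.15 ± 0.13 in SKF against normal control (adjusted p = 3.30e-08). Hk3, the isoform of myeloid blood cells, was close to absent from normal control brain, with 6 counts over the 8 libraries and 0 in 5 of them. Its SKF libraries held 30 to 82 counts and its vehicle libraries 42 to 104 counts. In CPM, Hk3 ran from 2.74 to 7.26 (median 5.20) in SKF libraries and from 4.55 to 10.6 (median 5.40) in vehicle libraries, against at most 0.191 in normal control. The fitted log2 fold changes were 6.33 ± 0.40 in vehicle against normal control (adjusted p = 2.76e-13) and 6.04 ± 0.40 in SKF against normal control (adjusted p = 1.12e-12), and at so few control counts their size depends on the prior count of the fit.

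Hk1, the constitutive hexokinase of brain, ran from 382 to 473 CPM (median 409) in SKF libraries and from 347 to 441 CPM (median 382) in vehicle libraries, against 388 to 455 CPM (median 429) in normal control. Its ranges overlapped, and its fall of 0.13 ± 0.05 on the log2 scale in vehicle against normal control had an adjusted p of 0.0481. That call was lost when any of 12 libraries was left out (adjusted p up to 0.0986) and on TPM. As shares of the family's summed TPM, Hk1 held 90.6% ± 1.48, Hk2 6.70% ± 1.09 and Hk3 2.71% ± 0.794 in SKF libraries (SD, n = 8). In vehicle libraries Hk1 held 88.0% ± 1.94, Hk2 8.58% ± 1.53 and Hk3 3.43% ± 1.03. In normal control they held 96.8% ± 0.777, 3.17% ± 0.756 and 0.0345% ± 0.0476. Hk1 thus remained the most abundant hexokinase transcript per length in every group.

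Marker levels of monocytes and macrophages and of neutrophils were also higher in wounded libraries, while microglia markers moved both ways. Of 8 microglia markers tested, 4 rose and 2 fell in vehicle against normal control, where 26.9% of all genes tested rose and 27.1% fell. The 2 that fell were P2ry12 and Tmem119 (log2 fold change -1.49 and -1.51). In SKF against normal control 3 rose and 3 fell, where 25.5% of all genes tested rose and 24.7% fell. The microglia sums overlapped, at 290 to 407 CPM in SKF, 331 to 437 CPM in vehicle and 250 to 338 CPM in normal control libraries. All 9 tested markers of monocytes and macrophages rose in vehicle against normal control, and their sum ran from 515 to 1008 CPM in SKF libraries and 727 to 1191 CPM in vehicle libraries, against 38.8 to 61.4 CPM in normal control. All 5 tested neutrophil markers rose as well, with sums over 8 markers of 25.1 to 46.5 CPM in SKF libraries and 47.9 to 105 CPM in vehicle libraries, against 2.78 to 5.19 CPM in normal control. Of the defining granule genes, Ltf was at 0 in every library of all 3 groups and Elane in every normal control library. The part of these cells in the changes of Hk2, Hk3, Slc16a3 and the other genes that rose was not tested.

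**Figure D2:**
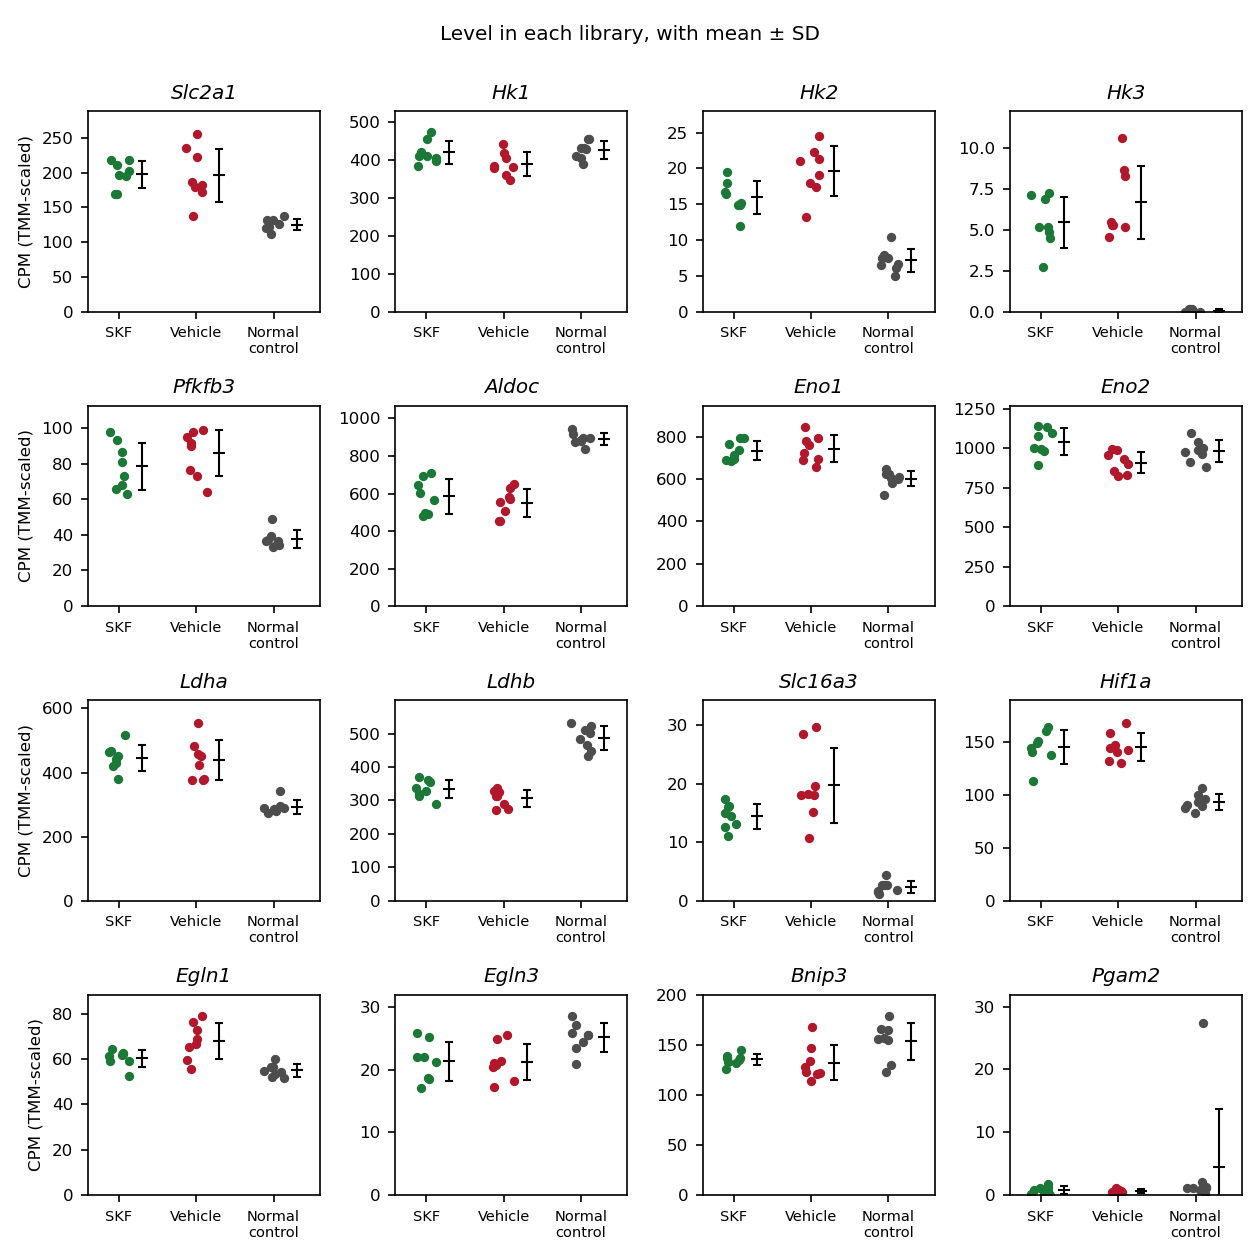
Level of 16 of the genes in each library (points; CPM on effective library sizes, axes from 0) in the SKF, vehicle and normal control groups, with the mean ± SD (bars, n = 8). Hk2, Hk3, Pfkfb3, Slc16a3, Ldha and Hif1a lie higher in all wounded than in all normal control libraries, Aldoc and Ldhb lie lower, and a lone normal control library sets the Pgam2 mean.

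Of the 16 glycolytic enzymes 5 rose and 5 fell in vehicle against normal control (62.5%, beside 54.0% of all genes tested). The called enzymes after hexokinase changed by less than 2-fold, other than Pgam2. Phosphofructokinase commits sugar to glycolysis, and its liver-type subunit gene Pfkl rose by 0.42 ± 0.08 (log2; edgeR adjusted p = 5.85e-05) while its muscle-type subunit gene Pfkm fell by 0.50 ± 0.07 (adjusted p = 5.82e-07), with no overlap for Pfkm. Pfkp, the platelet-type subunit gene, differed by 0.06 ± 0.08 in vehicle against normal control (adjusted p = 0.577) and rose by 0.21 ± 0.08 in SKF against normal control (adjusted p = 0.0341). That call of Pfkp was lost without any of 6 libraries (adjusted p up to 0.0930). By share of summed TPM, Pfkm held 35.4% ± 3.14 in SKF and 35.5% ± 3.16 in vehicle libraries, against 46.4% ± 2.36 in normal control (SD, n = 8).

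Of the aldolases, which split the sugar, the astrocytic isoform fell and the general isoform did not pass the test. Aldoc, the isoform typical of astrocytes, ran from 479 to 709 CPM (median 582.5) in SKF libraries and from 453 to 652 CPM (median 560) in vehicle libraries, against 838 to 946 CPM (median 888) in normal control. All wounded libraries lay below all normal control libraries, with falls of 0.70 ± 0.08 in vehicle (log2; edgeR adjusted p = 9.55e-08) and 0.61 ± 0.08 in SKF (adjusted p = 1.05e-06). Aldoa, the general isoform, ran from 1222 to 1616 CPM (median 1408) in SKF libraries and from 1182 to 1508 CPM (median 1307) in vehicle libraries, against 1267 to 1474 CPM (median 1424) in normal control. Those ranges overlapped, and its log2 difference of -0.09 ± 0.06 in vehicle against normal control did not pass (adjusted p = 0.214). Of 10 other astrocyte markers tested, 9 fell in vehicle against normal control and 1, Gfap (glial filament), rose by 2.46 (log2; adjusted p = 1.26e-15). Among all genes tested, 27.1% fell in that comparison.

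Enolase has a general isoform, Eno1, and a neuronal isoform, Eno2. Eno1 ran from 688 to 796 CPM (median 725) in SKF libraries and from 655 to 845 CPM (median 742) in vehicle libraries, against 526.1 to 647 CPM (median 607) in normal control. It was higher in every wounded library, by 0.30 ± 0.06 in vehicle (log2; edgeR adjusted p = 5.35e-05) and 0.29 ± 0.06 in SKF (adjusted p = 0.000116). Eno2 ran from 895 to 1138 CPM (median 1041) in SKF libraries and from 821 to 995 CPM (median 917) in vehicle libraries, against 878 to 1096 CPM (median 983) in normal control. Its ranges overlapped and neither comparison with normal control passed (log2 difference -0.11 ± 0.06, adjusted p = 0.117 in vehicle, and 0.08 ± 0.06, adjusted p = 0.254 in SKF), though on TPM Eno2 was called higher in SKF. Of 9 other neuronal markers tested, 6 fell and 0 rose in vehicle against normal control, where 27.1% of all genes tested fell.

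Among the remaining enzymes, Pkm (pyruvate kinase of muscle and brain) rose by 0.32 ± 0.06 in vehicle (log2; edgeR adjusted p = 4.99e-05) and by 0.40 ± 0.06 in SKF (adjusted p = 2.79e-06), with no overlap with normal control. Tpi1 (triosephosphate isomerase) fell by 0.17 ± 0.07 in vehicle against normal control (adjusted p = 0.0291), a call lost without any of 6 libraries (adjusted p up to 0.0683) and on TPM. Gpi, Gapdh and Pgam1, which act between glucose 6-phosphate and phosphoenolpyruvate, had log2 differences from -0.12 to 0.08 in both comparisons with normal control and did not pass. On TPM Gapdh was called higher in both, and DESeq2 called Gpi lower in vehicle. Gapdh, Tpi1, Pgam1, Eno1, Ldha and Aldoa have processed pseudogenes or close copies, and how shared reads were counted is not given in the sources used here, so their levels are uncertain to that extent.

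Pgam2, the muscle phosphoglycerate mutase, rests on 1 library. It ran from 0 to 1.73 CPM (median 0.763) in SKF libraries and from 0.237 to 1.13 CPM (median 0.574) in vehicle libraries, against 0.325 to 27.4 CPM (median 1.15) in normal control. The highest value is that of normal control 4, the library with the high muscle markers, and the next highest was 2.00 CPM. The fall of 2.84 ± 0.81 in vehicle against normal control (log2; edgeR adjusted p = 0.00496) became -0.87 without that library (adjusted p = 0.129), and the fall of 2.52 in SKF became -0.55 (adjusted p = 0.339).

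All 5 genes of lactate conversion and transport changed in vehicle against normal control, 3 higher and 2 lower, where 54.0% of all genes tested were called. Ldha, the subunit that favours lactate formation, ran from 379 to 516 CPM (median 447) in SKF libraries and from 376 to 555 CPM (median 438) in vehicle libraries, against 272 to 341 CPM (median 287) in normal control. Ldhb, the subunit that favours lactate use, ran from 290.0 to 371 CPM (median 332) in SKF libraries and from 271 to 338 CPM (median 312) in vehicle libraries, against 433 to 532 CPM (median 492) in normal control. Neither gene's wounded libraries overlapped with normal control, and they lay on opposite sides of it. Ldha rose by 0.58 ± 0.07 in vehicle (log2; edgeR adjusted p = 1.83e-07) and by 0.61 ± 0.07 in SKF (adjusted p = 9.91e-08). Ldhb fell by 0.67 ± 0.06 in vehicle (adjusted p = 3.74e-10) and by 0.54 ± 0.06 in SKF (adjusted p = 2.17e-08). Summed TPM of the pair averaged 1051 ± 44.7 in SKF and 1008 ± 56.8 in vehicle libraries, against 1109 ± 72.4 in normal control (SD, n = 8). Within that sum the share of Ldha was 40.6% ± 3.20 in SKF and 42.2% ± 4.86 in vehicle libraries, against 23.5% ± 2.50 in normal control.

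The lactate exporter Slc16a3, a high-capacity carrier of glycolytic cells, ran from 11.0 to 17.3 CPM (median 14.7) in SKF libraries and from 10.7 to 29.7 CPM (median 18.1) in vehicle libraries, against 1.15 to 4.34 CPM (median 2.24) in normal control. It was 8.38-fold higher in vehicle (log2 fold change 3.07 ± 0.22, edgeR adjusted p = 7.96e-12) and 6.13-fold higher in SKF (2.62 ± 0.22, adjusted p = 1.98e-10), without overlap. Slc16a1, the carrier of endothelium and glia, ran from 116 to 139 CPM (median 128) in SKF libraries and from 109.0 to 165 CPM (median 127) in vehicle libraries, against 78.8 to 109 CPM (median 93.2) in normal control. All 8 SKF libraries and 7 of 8 vehicle libraries lay above the normal control range, with rises of 0.42 ± 0.08 in SKF (log2; adjusted p = 5.82e-05) and 0.47 ± 0.08 in vehicle (adjusted p = 1.08e-05). Slc16a7, the high-affinity carrier of neurons, fell by 0.50 ± 0.16 in vehicle (adjusted p = 0.0104), and its difference of -0.28 ± 0.16 in SKF did not pass (adjusted p = 0.144). Per length, Slc16a1 stayed at 89.5% ± 1.17 of the 3 carriers' summed TPM in SKF and 89.2% ± 1.89 in vehicle libraries, against 88.7% ± 2.11 in normal control (SD, n = 8). Of the same sum, Slc16a3 held 4.03% ± 0.678 in SKF and 5.25% ± 1.46 in vehicle libraries, against 0.851% ± 0.359 in normal control.

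**Figure D3:**
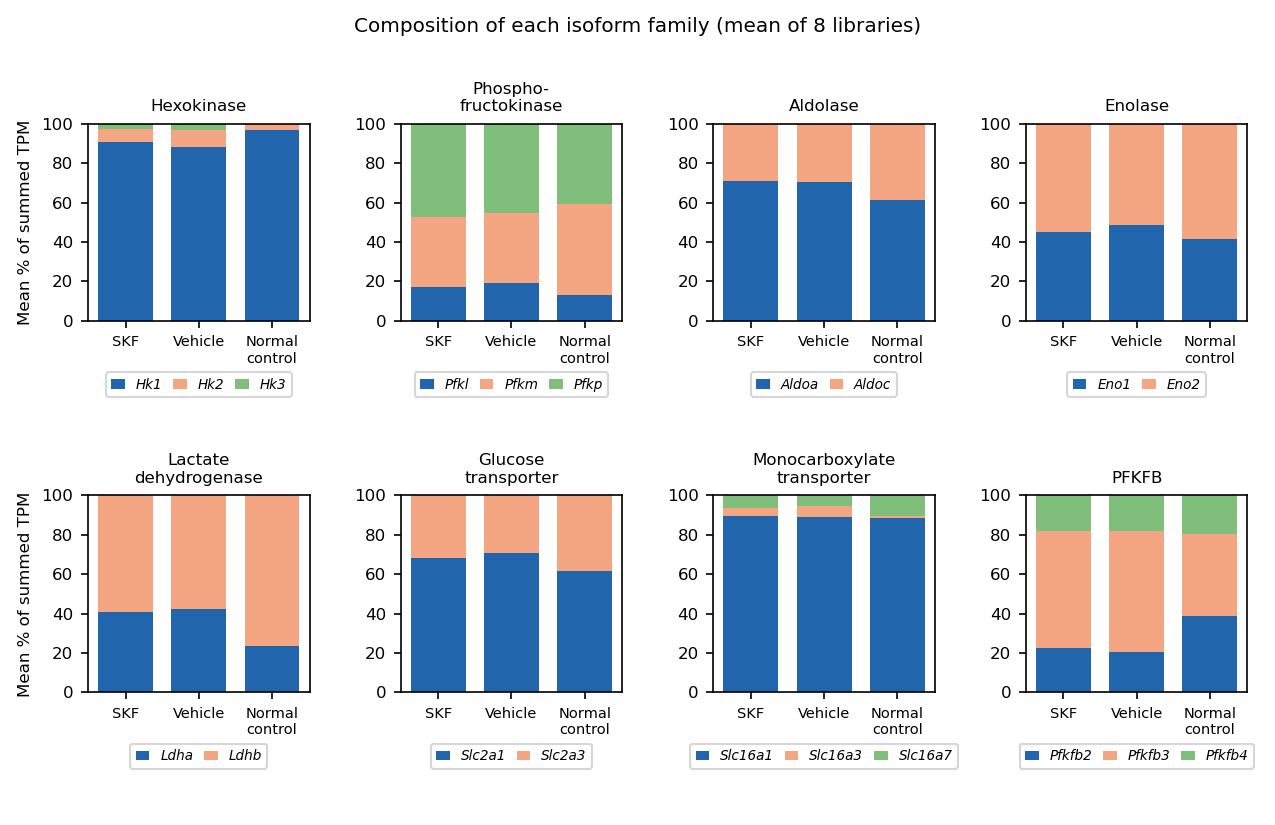
Mean share of each isoform in the summed TPM of its family (percent, stacked bars from 0 to 100, 8 libraries a group) for 8 families in SKF, vehicle and normal control. The share of Ldha averages 40.6% in SKF and 42.2% in vehicle libraries against 23.5% in normal control, and that of Pfkfb3 averages 59.5% and 61.1% against 41.7%.

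The regulatory kinases set the speed of glycolysis and the entry of pyruvate into mitochondria. Pfkfb3, the bifunctional enzyme with the strongest drive towards glycolysis, ran from 63.2 to 97.9 CPM (median 77.0) in SKF libraries and from 64.1 to 99.0 CPM (median 90.7) in vehicle libraries, against 33.0 to 48.9 CPM (median 36.5) in normal control. Pfkfb4, a related enzyme, ran from 6.44 to 10.7 CPM (median 9.59) in SKF libraries and from 6.73 to 13.6 CPM (median 9.72) in vehicle libraries, against 5.14 to 8.60 CPM (median 6.74) in normal control. The groups of Pfkfb3 did not overlap with normal control and those of Pfkfb4 did. Pfkfb3 rose by 1.19 ± 0.10 in vehicle (log2; edgeR adjusted p = 2.26e-10) and by 1.06 ± 0.10 in SKF (adjusted p = 2.14e-09). Pfkfb4 rose by 0.52 ± 0.14 in vehicle (adjusted p = 0.00261) and by 0.41 ± 0.14 in SKF (adjusted p = 0.0176). Pfkfb2, the form best known from heart, fell by 0.28 ± 0.07 in vehicle (adjusted p = 0.00128), a call not made on TPM.

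The pyruvate dehydrogenase kinases close the entry of pyruvate into mitochondria. Pdk1, Pdk2 and Pdk4 had log2 differences of 0.16 ± 0.08, -0.15 ± 0.07 and 0.28 ± 0.18 in vehicle against normal control, and none passed (edgeR adjusted p = 0.0832, 0.0823 and 0.213), though Pdk1 was called higher on TPM. Pdk1 rose by 0.31 ± 0.08 in SKF against normal control (adjusted p = 0.00141). Pdk4 rose by 0.44 ± 0.18 in that comparison (adjusted p = 0.0470), a call lost when any of 16 libraries was left out (adjusted p up to 0.121). As shares of summed TPM, Pdk2 stayed the leading kinase transcript, at 71.9% ± 3.03 in SKF and 72.7% ± 2.70 in vehicle libraries, against 77.2% ± 2.73 in normal control (SD, n = 8).

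Genes of oxygen sensing did not move in 1 direction. Hif1a, the regulated subunit of HIF, ran from 113 to 164 CPM (median 147) in SKF libraries and from 130 to 168 CPM (median 143) in vehicle libraries, against 82.5 to 107 CPM (median 91.8) in normal control. No wounded library fell within the normal control range, and it rose by 0.64 ± 0.07 in vehicle (log2; edgeR adjusted p = 8.83e-09) and by 0.64 ± 0.07 in SKF (adjusted p = 1.10e-08). Egln1, the main prolyl hydroxylase acting on HIF1A, ran from 52.3 to 64.5 CPM (median 61.5) in SKF libraries and from 55.8 to 79.0 CPM (median 67.6) in vehicle libraries, against 51.8 to 60.2 CPM (median 54.5) in normal control. It rose by 0.31 ± 0.06 in vehicle (adjusted p = 0.000152), while its difference of 0.13 ± 0.06 in SKF did not pass (adjusted p = 0.0751). Egln1 was called higher in SKF on TPM, with the compared groups fitted alone, and without SKF 6. Egln3, a hydroxylase that is itself a HIF target, fell by 0.25 ± 0.09 in vehicle (adjusted p = 0.0234) and by 0.24 ± 0.09 in SKF (adjusted p = 0.0297). Bnip3, a HIF target that promotes the removal of mitochondria, fell by 0.22 ± 0.07 in vehicle (adjusted p = 0.0149) and by 0.18 ± 0.07 in SKF (adjusted p = 0.0415). Neither fall was called on TPM. The Egln3 call was also lost without any of 3 libraries in vehicle against normal control and any of 5 in SKF against normal control, and the Bnip3 call without any of 11 in SKF.

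The pentose phosphate pathway branches from glycolysis and supplies NADPH and ribose. Tkt (transketolase) ran from 168 to 199.8 CPM (median 192) in SKF libraries and from 184 to 207 CPM (median 193) in vehicle libraries, against 147 to 194 CPM (median 167) in normal control. Pgd (6-phosphogluconate dehydrogenase) ran from 552 to 653 CPM (median 613) in SKF libraries and from 536 to 632 CPM (median 589) in vehicle libraries, against 549 to 723 CPM (median 646) in normal control. Both genes' ranges overlapped between groups. Tkt rose by 0.18 ± 0.05 in vehicle (log2; edgeR adjusted p = 0.00316) and by 0.16 ± 0.05 in SKF (adjusted p = 0.0111), and Pgd did not pass in vehicle (-0.12 ± 0.06, adjusted p = 0.0682) or SKF (-0.07 ± 0.06, adjusted p = 0.316). DESeq2 and limma voom called Pgd lower in vehicle, and the Tkt call in SKF was lost without normal control 4 and 6 together.

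Isoform balance was measured as the log2 ratio of TPM within each library, which cancels library scaling. Of 16 pairs, 15 differed between vehicle and normal control by two-sided exact permutation tests over the 12870 assignments, adjusted over 48 tests (16 pairs in 3 comparisons). The exception was Pdk4 over Pdk2 (0.47 ± 0.25, exact adjusted p = 0.116). How often other pairs of genes differ was not tested, and 54.0% of all single genes tested were called by edgeR in that comparison. Of the 15, Pgam2 over Pgam1 (-1.36) lost its call without vehicle 4, 5, 6 or 8 or without normal control 4, where it was -0.76. For 9 pairs of those 15 the libraries did not overlap, and p was 0.0001554, the smallest the design allows (adjusted p = 0.000414). Ldha over Ldhb averaged -0.55 ± 0.193 in SKF and -0.46 ± 0.286 in vehicle libraries, against -1.71 ± 0.194 in normal control (SD, n = 8), so vehicle exceeded normal control by 1.25 ± 0.12 (SE). Aldoa over Aldoc averaged 1.29 ± 0.148 in SKF and 1.27 ± 0.211 in vehicle libraries, against 0.65 ± 0.0563 in normal control. Both ratios parted all wounded from all normal control libraries. Pfkfb3 over Pfkfb2 was higher in vehicle than in normal control by 1.47 ± 0.16, Pfkl over Pfkm by 0.93 ± 0.10 and Slc16a3 over Slc16a1 by 2.47 ± 0.23. In Slc16a7 over Slc16a1 and Egln3 over Egln1 the ratio was lower in vehicle than in normal control, with differences of -1.01 ± 0.24 and -0.55 ± 0.09 (exact adjusted p = 0.00239 and 0.000785).

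**Figure D4:**
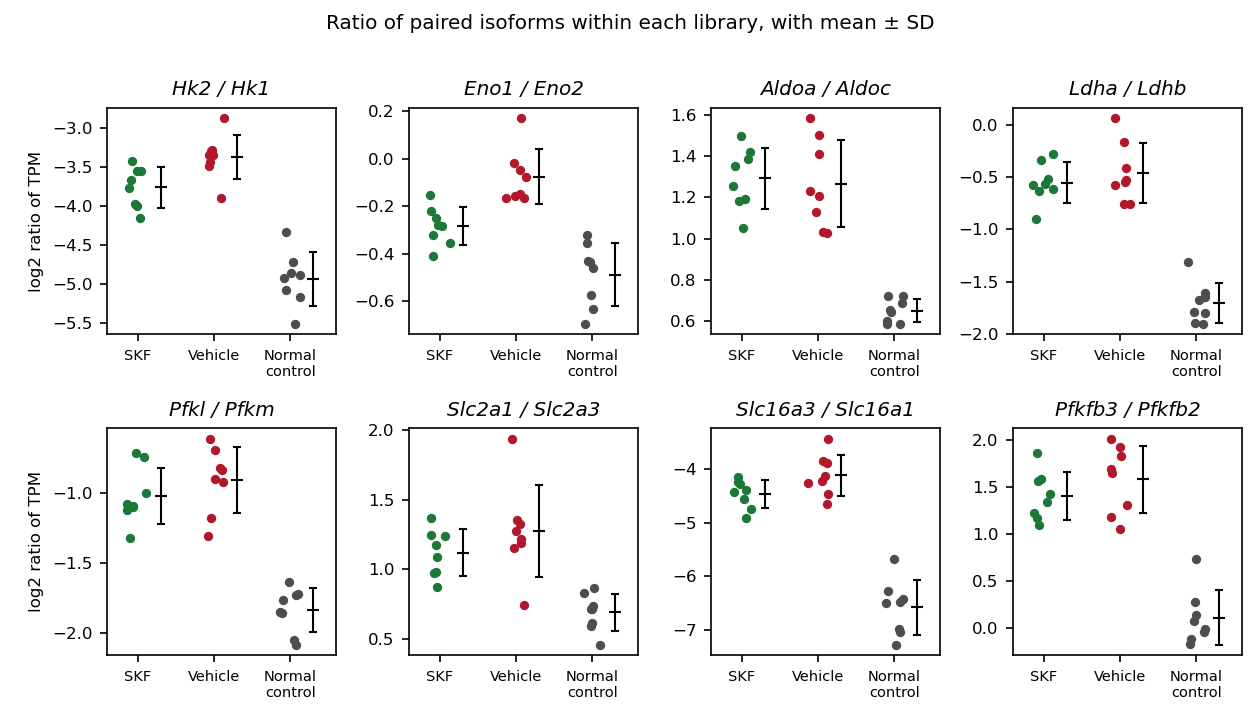
Log2 ratio of the TPM of paired isoforms in each library (points) for 8 pairs in the SKF, vehicle and normal control groups, with the mean ± SD (bars, n = 8). Axes do not start at 0. The wounded libraries lie above all normal control libraries for every pair shown other than Eno1/Eno2 and Slc2a1/Slc2a3. The SKF mean lies between those of vehicle and normal control for every pair shown other than Aldoa/Aldoc.

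SKF against vehicle asks what the agonist changed in wounded brain. None of the 35 genes passed, as none of the 14421 genes tested did (0% called by edgeR), and 0 of the 35 were called by DESeq2, limma voom with sample weights or limma on TPM. At an unadjusted p under 0.05, edgeR gave 6 of the 35 genes (17.1%) against 715 of all genes (4.96%). These edgeR differences on the log2 scale were 0.19 ± 0.06 for Eno2, 0.16 ± 0.07 for Tpi1 and 0.13 ± 0.06 for Ldhb, and -0.45 ± 0.19 for Slc16a3, -0.30 ± 0.12 for Hk2 and -0.17 ± 0.06 for Egln1. Their edgeR p values before adjustment lay between 0.00298 (Eno2) and 0.0431 (Ldhb). After adjustment they lay between 0.787 and 0.937. All 35 log2 differences lay between -0.45 and 0.32, the end values being those of Slc16a3 and Pgam2. On simulated counts with known changes, the same test called 82% of genes changed 1.5-fold and 100% of those changed 2-fold in SKF against vehicle. That simulation gave every gene the same spread. It changed 50 genes by 1.5-fold, 50 by 2-fold and others by 4-fold and 8-fold, and many changed genes ease the adjusted threshold. In the data no gene passed. The simulated rates therefore do not carry over to a few changed genes or to changes under 1.5-fold. Nor do they carry over to genes with a large SE, such as Pgam2 (0.92) and Hk3 (0.23).

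Of the 16 isoform ratios 2 differed between SKF and vehicle when p was adjusted over all 48 tests, and 1 of them, Eno1 over Eno2, when it was adjusted over the 16 tests of that comparison. Eno1 over Eno2 ran from -0.41 to -0.15 (median -0.28) in SKF libraries and from -0.17 to 0.17 (median -0.11) in vehicle libraries, against -0.70 to -0.32 (median -0.45) in normal control. The ranges overlapped, but each of the 8 SKF values was under the median of vehicle. SKF minus vehicle was -0.21 ± 0.05 (SE; exact permutation p = 0.000622, adjusted p = 0.00142), and the share of Eno1 in the pair's TPM was 45.1% ± 1.36 in SKF and 48.7% ± 2.00 in vehicle libraries, against 41.6% ± 2.23 in normal control (SD, n = 8). Hk2 over Hk1 ran from -4.16 to -3.43 (median -3.72) in SKF libraries and from -3.90 to -2.87 (median -3.35) in vehicle libraries. Here too each of the 8 SKF values was under the median of vehicle, with a difference of -0.39 ± 0.14 (exact permutation p = 0.0120, adjusted p = 0.0191 over the 48 tests). Adjusted over the 16 tests of SKF against vehicle, Hk2 over Hk1 did not pass (exact adjusted p = 0.0957). Slc16a3 over Slc16a1 differed by -0.35 ± 0.16 and did not pass (exact adjusted p = 0.0692). The other 13 ratios did not pass, among them Ldha over Ldhb (-0.09 ± 0.12, exact adjusted p = 0.531) and Aldoa over Aldoc (0.03 ± 0.09, exact adjusted p = 0.782).

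No marker of neutrophils (5 tested), of monocytes and macrophages (9) or of neurons (10, with Eno2) passed in SKF against vehicle by edgeR. Of these markers 4, 4 and 1 had an unadjusted edgeR p under 0.05, as did 4.96% of all genes tested. The 1 neuronal marker was Eno2, which is itself part of the ratio Eno1 over Eno2. The neutrophil sums of the SKF libraries (25.1 to 46.5 CPM) lay below all those of the vehicle libraries (47.9 to 105 CPM), the monocyte and macrophage sums had medians of 771 CPM in SKF and 860.3 CPM in vehicle libraries, and the sums of 9 neuronal markers had medians of 4597 CPM in SKF and 4590.0 CPM in vehicle libraries. The part of these cells in the 2 ratios was not tested.

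Neighbouring genes of the pathway were read from lists of genes that are not among the 36. The other 5 tested pentose phosphate genes all rose in vehicle against normal control, among them Taldo1 (transaldolase, log2 fold change 0.49, edgeR adjusted p = 1.84e-07) and Rpia (ribose 5-phosphate isomerase, 0.72, adjusted p = 1.26e-06), on TPM too. Of 12 genes of pyruvate entry into mitochondria 9 fell and 0 rose (4 fell on TPM), among them Pdp1, the phosphatase that activates pyruvate dehydrogenase (-1.05, adjusted p = 1.06e-08), and Pdhb, a subunit of that enzyme (-0.40, adjusted p = 7.37e-06). Their medians were 0.49 and -0.25, against -0.01 over all genes. Among all genes tested, 26.9% rose and 27.1% fell in that comparison.

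Of 25 other hypoxia genes 9 rose and 4 fell (12 and 3 on TPM), with a median of 0.03. Angptl4, an inhibitor of lipoprotein lipase, rose by 1.74 (log2; edgeR adjusted p = 2.97e-09). Bnip3l, a partner of Bnip3, fell by 0.32 (adjusted p = 2.23e-07) and Ddit4, an inhibitor of mTORC1, by 0.53 (adjusted p = 7.87e-06). Vegfa, the classic angiogenic HIF target, averaged 155 CPM in vehicle libraries against 151 CPM in normal control and did not pass (adjusted p = 0.832; chosen after its values were seen). The share of these genes called, 52.0%, is near the 54.0% of all genes.

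Of 13 glycogen genes 2 rose and 6 fell in vehicle against normal control (4 and 4 on TPM), 61.5% called beside 54.0% of all genes tested. Pgm2, a phosphoglucomutase family member, rose by 0.47 (edgeR adjusted p = 0.000214) and Gys1, glycogen synthase, by 0.20 (adjusted p = 0.0320). Phkb, a subunit of phosphorylase kinase, fell by 0.47 (adjusted p = 2.55e-07) and Pygb, brain glycogen phosphorylase, by 0.46 (adjusted p = 4.53e-07). Of 12 other transport genes 3 rose and 7 fell (3 and 3 on TPM), 83.3% called. Emb, a partner protein of lactate carriers, rose by 0.33 (adjusted p = 0.0143) and Slc16a6 by 0.32 (adjusted p = 0.0286). Slc2a13, a myo-inositol transporter, fell by 0.64 (adjusted p = 2.98e-05) and Slc16a4 by 0.99 (adjusted p = 0.00125). Of 7 other glycolysis genes 0 rose and 4 fell by edgeR (0 and 0 of 8 on TPM), 57.1% called, led by Ldhd, the D-lactate dehydrogenase (-0.39, adjusted p = 0.00338), and Adpgk, an ADP-dependent glucokinase (-0.36, adjusted p = 0.0254). In SKF against vehicle no gene of any of these lists passed.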

How the data were processed

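Per the labels' protocols, RNA was poly(A)-selected and made into libraries with a directional kit. The authors deposited whole-number read counts per gene, and TPM per gene that sum to 1e+06 in each library. Build mRatBN7.2 is named in the submitters' processing notes, while the aligner and read counter are not stated in the sources used here. Groups were read from the sample titles.

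The count tests used edgeR 4.0.16 (R 4.3.3), with filterByExpr, TMM factors and the robust quasi-likelihood F test, in 1 fit of 24 libraries (21 residual degrees of freedom). P values were adjusted by the Benjamini-Hochberg method over 14421 genes and called under 0.05. The SE of a log2 fold change is its size over the square root of F. Total counts ran from 8911339 to 12383368, and the biological coefficient of variation was 16.2%. Isoform ratios are log2 of TPM + 0.1, compared by exact permutation. Shares and ratios from TPM carry no count of reads.

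The members and all lists were chosen with earlier results of these data known. By rule, values by library are given for members that pass in SKF against vehicle, for the 2 largest changes of each role in vehicle against normal control, and for 5 isoform pairs. In other lists the 2 smallest p of each direction among called genes are named, except 1 hypoxia gene that is not reported here. Alternatives were DESeq2 1.42.0, limma 3.58.1 (voom, and TPM with pseudocounts 0.1 and 1), RLE size factors, other filters, the compared groups alone, the replicate number as a block and each library left out. The test was tested on simulated data. Python 3.11.15, NumPy 2.4.6, pandas 2.3.3 and Matplotlib 3.10.9 were also used.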

Additional observations from a re-analysis of the deposited data

Results flagged for a closer look

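In 5 of the 105 sets of 8 libraries (35 genes in 3 groups) the highest or lowest library stood apart, its gap to the nearest library divided by the range exceeding Dixon's critical value of 0.526. Chance alone flags about 5% of such sets. Pgam2 stood at 27.4 CPM in normal control 4, with the next highest normal control library at 2.00 CPM (gap over range 0.938), and the summed muscle markers of that library were 2957 CPM. Ldha stood at 341 CPM in normal control 6, with the next at 294 CPM (0.684), and Pfkfb3 at 48.9 CPM in the same library, with the next at 39.4 CPM (0.598). Both genes rose in vehicle against normal control with and without that library. Egln1 stood at 52.3 CPM in SKF 6, with the next lowest at 58.9 CPM (0.536). Tkt stood at 168 CPM in SKF 3, with the next lowest at 186 CPM (0.565).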

How the results depend on the processing

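Of the 24 genes called in vehicle against normal control, 18 kept their call under every alternative, and 20 under every alternative other than TPM. In SKF against normal control these were 16 and 17 of 24. No called gene changed sign. On TPM (pseudocounts 1 and 0.1, and 1 without a filter) the genes called lower numbered 4 in vehicle and 3 in SKF against normal control. With single libraries left out, 21 to 26 genes were called in vehicle and 19 to 24 in SKF against normal control, and 0 in SKF against vehicle. Without normal control 4 and 6 together, 24, 21 and 0 were called in those comparisons.

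The groups share replicate numbers, and no pairing by number was seen in the data. Correlations of same-numbered deviations ran from -0.241 to 0.0783, and 0 of 8 samples correlated best with its own number in any comparison. These values do not settle whether samples were paired by design. With the replicate block 23 genes were called in vehicle and 21 in SKF against normal control, and 0 in SKF against vehicle. In the same block the ratio Hk2 over Hk1 in SKF against vehicle, -0.39, had an exact adjusted p of 0.0882, Pgam2 over Pgam1 in vehicle against normal control, -1.36, had 0.0682, Slc16a3 over Slc16a1 in SKF against vehicle, -0.35, had 0.0469, and Pdk4 over Pdk2 in vehicle against normal control, 0.47, had 0.0375.

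Adjusted within the 16 tests of each comparison, a choice made after seeing the data, Hk2 over Hk1 in SKF against vehicle, -0.39, had an exact adjusted p of 0.0957, Eno1 over Eno2 had 0.00995, and no other ratio gained or lost a call.

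With single libraries left out, Pgam2 over Pgam1 in vehicle against normal control ran from -1.62 to -0.76 and lost its call without normal control 4 or vehicle 4, 5, 6 or 8. Pdk4 over Pdk2 in SKF against normal control ran from 0.41 to 0.63 and lost it without any of 8 libraries. In SKF against vehicle, Slc16a3 over Slc16a1 ran from -0.43 to -0.25 and passed without vehicle 2 or 5, and Egln3 over Egln1 ran from 0.13 to 0.22 and passed without SKF 2. Ratios that were not called changed sign in SKF against vehicle: Aldoa over Aldoc ran from -0.0085 to 0.071, Pgam2 over Pgam1 from -0.60 to 0.21 and Pdk4 over Pdk2 from -0.025 to 0.18. Where no library is named, the cause was not tested. Depth limits Hk3, which had few counts in the normal control libraries, and Pgam2, which had few in every group. Pgam2 had 0 to 19 counts in SKF and 3 to 13 in vehicle libraries, and 3 to 22 in normal control libraries other than normal control 4.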
